A study of Mus musculus with 27 samples.

Results

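The 9 genes described here encode 6 ligands (Areg, Ereg, Hbegf, Tgfa, Btc and Nrg1) and 3 receptors (Egfr, Erbb2 and Erbb3) of the EGF receptor family, and they were taken by gene symbol from 2 expression tables of mouse intestine. All 9 were present among the 17440 genes of the transgene table and among the 15176 genes of the knockout table. The transgene table held 3 Fosl1 transgene adenomas, 3 Braf adenomas and 3 control tissues. The knockout table held 6 Braf Fosl1 knockout adenomas, 5 Braf adenomas and 6 control tissues.

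Fosl1 transgene mice carried Tet-o-Fosl1, a tetracycline-switchable transgene, with Vil-CreERT2/+, and ate chow with 2000 mg/kg doxycycline from 1 week after tamoxifen. The labels name no transactivator for that transgene and no mutant Braf allele in these mice, and they give doxycycline to no other group. Knockout mice carried BrafV637E/+, Vil-CreERT2/+ and Fosl1lox/lox, and Braf mice carried BrafV637E/+ and Vil-CreERT2/+. Control mice had the genotype of the Braf mice but received sunflower oil without tamoxifen. In all groups the mice were 6 weeks old when they were gavaged on 2 days, with 5 mg tamoxifen in the adenoma groups, and all groups carried the tamoxifen-dependent Cre under the villin promoter, which is active in intestinal epithelium. The titles call every library but the controls an adenoma, while the tissue labels of the transgene and knockout libraries read intestinal epithelial tissue. Of 27 libraries, 26 were used, and 1 whose labels disagreed on its group was not used here.

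EGF receptor ligands are made as membrane-anchored precursors that proteases of the ADAM family cut loose. Binding of a ligand pairs the receptors and switches on their kinase domains, which feeds the Ras, Raf, Mek and Erk cascade in which Braf acts. In the intestine the family is known for driving crypt cell division and repair after injury, and it restrains itself through inhibitors that Erk signalling induces. The transcription factor encoded by Fosl1, also called Fra1, is an AP-1 subunit that lies downstream of that cascade.

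Recovered depth in the transgene table was 12418499 to 15484525 reads per library, where 3 reads correspond to between 0.194 and 0.242 CPM (read counts scaled to library size). Depth in the knockout table is not known, and its values are given as nCPM, normalised counts rescaled so that the columns have the mean size of a CPM column. Fosl1 averaged 3.54 ± 0.211 CPM in transgene adenomas, 4.57 ± 0.637 CPM in Braf adenomas and had no read in the 3 controls (SD, n = 3 each). No Fosl1 level is given for the knockout table, so loss of its RNA in knockout adenomas is not shown here. Epithelial markers were present in every library, with sums over 7 genes of 12980 to 14990 CPM in transgene adenomas, 20260 to 22600 CPM in Braf adenomas and 12060 to 14030 CPM in controls. In the knockout table the libraries of highest mitochondrial share were knockout 2 with 28.5% of the signal, control 4 with 23.4% and control 5 with 15.8%. Zeros of 8 libraries in that table, all the controls with knockout 2 and knockout 3, stand as fractions of up to 0.0793 nCPM. The Braf adenomas and the other knockout adenomas hold exact zeros, so Braf adenomas and controls differ in how zeros stand.

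Epgn, Ereg, Areg and Btc lie in a row on chromosome 5 (GRCm38), in the 376 kb of chr5:91027464-91402994, and no other protein-coding gene is annotated among these 4. Ereg (chr5:91074622-91093646) ends 46 kb before Areg (chr5:91139599-91148432), and Areg ends 209 kb before Btc (chr5:91357261-91402994, minus strand). Epgn, which encodes epigen, was in neither table used here. The antisense gene Gm19610 overlaps the start of Ereg, and since the use of strand in counting is not given in the sources used here, reads from the overlap cannot be assigned to either gene.

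RefSeq (GRCm38.p6) gave promoter sequence for 5 of the 9 genes, Areg, Btc, Tgfa, Egfr and Erbb2. The 250 bases before the transcription start are shown for Areg and Btc, neighbours that rose together in adenomas, and for Egfr, the receptor that rose with them. Capitals mark the matches found on either strand to TGACGTCA, the cAMP response element, or to CCGGAAG, an ETS core motif, which reads CTTCCGG on the other strand. The windows are chr5:91139349-91139598 (plus strand) for Areg, chr5:91402995-91403244 (minus strand) for Btc and chr11:16751953-16752202 (plus strand) for Egfr.
Areg: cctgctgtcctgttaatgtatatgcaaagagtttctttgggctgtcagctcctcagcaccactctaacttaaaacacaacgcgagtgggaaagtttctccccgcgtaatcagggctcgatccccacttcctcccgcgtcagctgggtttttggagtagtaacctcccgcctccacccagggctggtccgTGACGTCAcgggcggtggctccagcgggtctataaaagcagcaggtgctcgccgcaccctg
Btc: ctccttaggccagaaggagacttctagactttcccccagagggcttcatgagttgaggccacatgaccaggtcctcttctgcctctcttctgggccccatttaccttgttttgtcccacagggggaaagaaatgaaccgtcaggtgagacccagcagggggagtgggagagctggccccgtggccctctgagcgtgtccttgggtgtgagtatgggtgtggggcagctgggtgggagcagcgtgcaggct
Egfr: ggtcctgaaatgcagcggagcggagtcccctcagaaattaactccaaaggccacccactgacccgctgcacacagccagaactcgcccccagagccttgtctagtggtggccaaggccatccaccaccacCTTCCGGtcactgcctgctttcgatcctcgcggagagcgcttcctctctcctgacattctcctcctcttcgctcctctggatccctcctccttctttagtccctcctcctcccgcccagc
The Areg window held 1 cAMP response element, beginning 61 bases before the start, and the Egfr window held 1 ETS motif, beginning 120 bases before it. Those motifs were present in 1.55% and 6.91% of 32851 promoter windows of the same length. The AP-1 motif TGANTCA, present in 6.75% of all windows, had no match in these 5 windows, nor did Btc, Tgfa or Erbb2 hold either of the other motifs. The 3 motifs do not overlap in these windows, and a match or its absence describes only the letters of the window.

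In Braf adenomas, 5 of the 6 ligands and the receptor gene Egfr rose above control tissue in both tables. Btc and Areg moved furthest, each by over 3 on the log2 scale, while Erbb2 did not pass the test and Erbb3 was lower in 1 of the tables. The count was 6 of 9 higher and 0 lower in the transgene table, where 51.1% of 15173 genes tested passed, 33.1% higher and 18% lower, and 6 higher and 1 lower in the knockout table, where 61.6% of 14806 genes passed, 45.3% higher and 16.2% lower. Median log2 differences of the 9 members were 1.39 and 1.31, beside 0.27 and 0.42 for all genes tested. Rescaling by TMM (trimmed mean of M values) moved the medians of all genes to 0.05 and 0.01, and the calls over all genes to 3790 higher and 3785 lower, against 5020 and 2731 as deposited, in the transgene table, and to 4303 higher and 4351 lower, against 6712 and 2405, in the knockout table. The tables share no library. Markers of several cell types moved in the same comparisons. Of 5 enterocyte markers 4 were lower in each table, with sums averaging 1817 ± 1050 CPM in Braf adenomas and 23780 ± 4929 CPM in controls of the transgene table, and 4571 ± 4483 nCPM in Braf adenomas and 25450 ± 2744 nCPM in controls of the knockout table. All 5 endothelial markers were higher in each table, as were 4 of 4 and 4 of 5 smooth muscle markers tested. The part of these markers in the levels of the 9 genes was not tested.

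Areg encodes amphiregulin, a ligand of the EGF receptor induced in crypts during repair. Areg stood at 60.6, 36.4 and 140.3 CPM in Braf adenomas, against 8.80, 8.72 and 2.42 CPM in controls. The knockout table gave 127.1, 86.2, 70.5, 116.0 and 63.8 nCPM in Braf adenomas, against a lowest, median and highest level of 4.70, 6.95 and 7.91 nCPM in controls. Every Braf adenoma was above every control in both tables. The log2 difference was 3.32 (SE 0.58, limma adjusted p = 0.00157) in the transgene table and 3.58 (SE 0.19, adjusted p = 4.2e-12) in the knockout table. In these bulk samples, fewer cells of a type and less RNA per cell cannot be told apart.

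Btc, which encodes betacellulin, a ligand of both the EGF receptor and ErbB4, had the largest log2 difference among the 9 genes in both tables. Btc was at 48.3, 58.8 and 83.3 CPM in Braf adenomas, against 2.07, 2.02 and 3.41 CPM in controls. Braf adenomas of the knockout table held 59.6, 86.9, 66.3, 89.2 and 85.6 nCPM, against 2.46, 3.47 and 5.76 nCPM as the lowest, median and highest control. Again no Braf adenoma reached down to a control. Its differences were 4.19 (SE 0.27, adjusted p = 9.5e-07) and 4.07 (SE 0.29, adjusted p = 6.0e-10) on the log2 scale.

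Tgfa and Hbegf, which encode transforming growth factor alpha and heparin-binding EGF-like growth factor, moved less than Areg and Btc. Tgfa (chr6:86195223-86275719) stood at 57.0, 79.7 and 47.0 CPM in Braf adenomas, against 26.7, 24.1 and 24.4 CPM in controls. Its levels in the knockout table were 45.4, 47.8, 64.6, 74.5 and 57.6 nCPM in Braf adenomas, against 19.2, 24.8 and 33.3 nCPM as the lowest, median and highest control. These groups did not overlap, and the Tgfa differences were 1.22 (SE 0.22, adjusted p = 0.00106) and 1.13 (SE 0.21, adjusted p = 1.1e-04). Hbegf (chr18:36504927-36515805, minus strand) stood at 40.1, 43.8 and 52.0 CPM in Braf adenomas, against 26.6, 18.2 and 16.8 CPM in controls. The knockout table gave Hbegf 78.4, 56.2, 42.0, 85.2 and 63.5 nCPM in Braf adenomas, against 19.2, 25.8 and 30.5 nCPM as the lowest, median and highest control. Hbegf groups did not overlap either, with differences of 1.12 (SE 0.40, adjusted p = 0.0428) in the transgene table and 1.31 (SE 0.18, adjusted p = 4.9e-06) in the knockout table. The Hbegf call in the transgene table was lost after TMM rescaling (adjusted p = 0.135) and in 10 of 17 alternatives, over which the adjusted p ran from 0.00306 to 0.175, among them leaving out Braf 1 (0.071), Braf 2 (0.0888), Braf 3 (0.12), control 2 (0.11) or control 3 (0.118), while the call in the knockout table held in all 20.

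Nrg1 encodes neuregulin 1, a ligand of ErbB3 and ErbB4, and was the least abundant of the 9 genes per length in every group. Nrg1 (chr8:31814551-32884029, minus strand) had 3.65, 0.161 and 3.39 CPM in Braf adenomas, against 0, 0.234 and 0.0758 CPM in controls. The low Braf library, Braf 2, had 2 reads, beside 52 and 46 reads in Braf 1 and Braf 3 and at most 3 reads in a control, so the groups overlapped. Nrg1 in the knockout table was at 3.08, 2.68, 1.97, 1.43 and 0.985 nCPM in Braf adenomas, against a highest control level of 0.313 nCPM, with no overlap. The log2 differences were 1.39 (SE 0.47, adjusted p = 0.0307) and 1.36 (SE 0.33, adjusted p = 0.0013). Nrg1 entered both tests through its level in adenomas alone, so that its call is no independent support for the count. The call in the transgene table was lost in 8 of 17 alternatives, with adjusted p from 1.4e-04 to 0.309, among them leaving out Braf 1 (0.101), Braf 3 (0.111), control 1 (0.0894), control 2 (0.0608) or control 3 (0.0747), and held in all 19 that could be fitted in the knockout table.

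Ereg, which encodes epiregulin, did not pass the test in Braf adenomas in either table. Ereg had 4.08, 0.0805 and 11.9 CPM in Braf adenomas, against 0.572, 0.623 and 0.379 CPM in controls. It had, in the knockout table, 9.54, 5.88, 2.78, 6.20 and 0.680 nCPM in Braf adenomas, against 2.46, 3.14 and 12.2 nCPM as the lowest, median and highest control. Braf 2 had 1 Ereg read where Braf 1 had 58 and Braf 3 had 162, and in the knockout table Braf 8 lay under every control and control 4 above every Braf adenoma. The log2 differences were 1.44 (SE 0.75, adjusted p = 0.14) in the transgene table and 0.04 (95% interval -1.13 to 1.2, adjusted p = 0.96) in the knockout table. Without Braf 2 the first difference was 2.41 (adjusted p = 6.1e-04), and with DESeq2 on recovered reads it was 3.04 (adjusted p = 0.00501), within a range of 6.1e-04 to 0.457 over 17 alternatives. Fibroblast markers summed over 6 genes to 170.0, 18.5 and 122.6 CPM in Braf 1, 2 and 3, against 6.59 to 18.3 CPM in controls, so that Braf 2 was lowest in both the sum and Ereg while Braf 1 had the larger sum and less Ereg than Braf 3. In the knockout table all 6 fibroblast markers were higher in Braf adenomas, with sums of 227.7 ± 169.1 nCPM in Braf adenomas and 9.86 ± 2.31 nCPM in controls (SD, n = 5 and 6), where Ereg did not pass. The part of these markers in the Ereg levels was not tested.

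**Figure D1:**
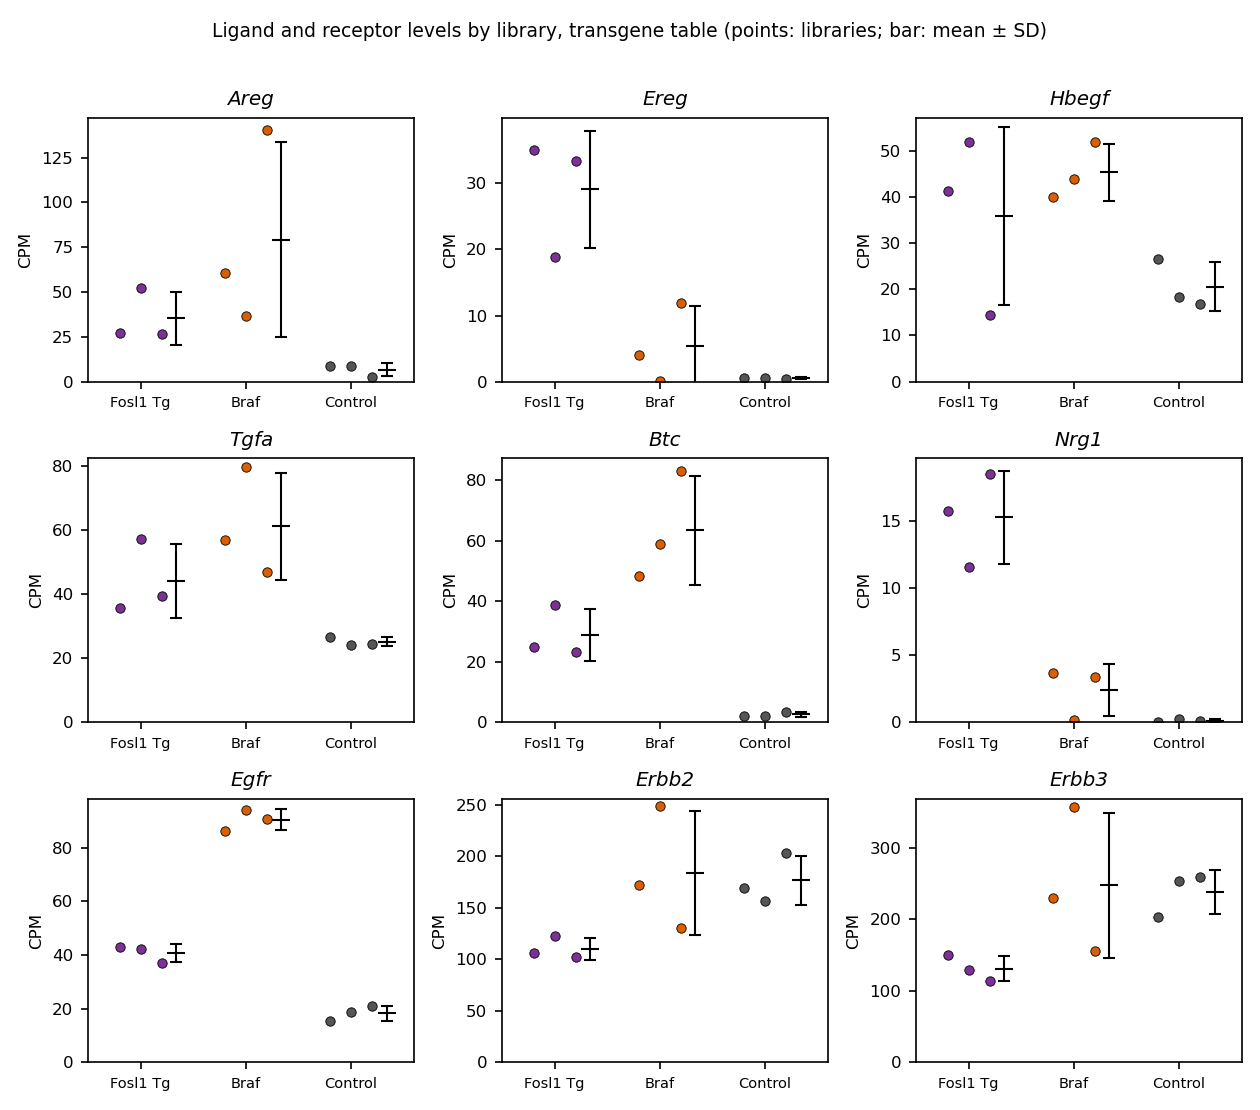
Levels of the 9 genes in the transgene table, in CPM on axes from 0. Each point is 1 library of the Fosl1 transgene, Braf or control group, and the bars give the mean ± SD of 3 libraries. Areg, Btc, Tgfa and Egfr were above all controls in every adenoma of both kinds, and Ereg and Nrg1 were highest in the 3 transgene adenomas.

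The receptors did not move as one. Egfr, the receptor for most of these ligands, rose in both tables. Egfr (chr11:16752203-16918158) stood at 86.3, 94.1 and 90.8 CPM in Braf adenomas, against 15.5, 18.6 and 20.9 CPM in controls. The knockout table gave Egfr 82.9, 105.1, 108.5, 62.9 and 126.2 nCPM in Braf adenomas, against 9.45, 13.6 and 17.1 nCPM as the lowest, median and highest control. No Braf adenoma came near a control level, and the differences were 2.25 (SE 0.15, adjusted p = 1.1e-06) and 2.75 (SE 0.27, adjusted p = 7.6e-08).

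Erbb2 encodes a receptor with no known ligand of its own, which pairs with the other family members, and Erbb3 encodes a neuregulin receptor with little kinase activity of its own. Erbb2 (chr11:98412470-98437716) stood at 172.2, 248.6 and 130.4 CPM in Braf adenomas, against 169.5, 156.8 and 203.6 CPM in controls, and the groups overlapped with a difference of 0.01 (95% interval -0.46 to 0.49, adjusted p = 0.958). In the knockout table Erbb2 stood at 142.1, 153.6, 144.5, 175.8 and 131.7 nCPM in Braf adenomas, against 133.2, 178.2 and 209.0 nCPM as the lowest, median and highest control, with a difference of -0.20 (95% interval -0.49 to 0.10, adjusted p = 0.233). After TMM rescaling that difference was -0.67 (adjusted p = 0.00218) and with median-ratio factors -0.71 (adjusted p = 0.00158), over a range of 0.00158 to 0.673 in 20 alternatives, so the Erbb2 call depended on the scaling.

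Erbb3 (chr10:128567523-128589652, minus strand) stood at 229.9, 356.7 and 156.1 CPM in Braf adenomas, against 203.2, 253.0 and 259.7 CPM in controls, with a difference of -0.02 (95% interval -0.60 to 0.56, adjusted p = 0.955). The knockout table gave Erbb3 259.4, 235.3, 312.5, 413.4 and 296.2 nCPM in Braf adenomas, against 347.8, 439.9 and 505.2 nCPM as the lowest, median and highest control. Only 1 of the 5 Braf adenomas, Braf 7, reached the range of the controls, and Erbb3 fell by 0.50 on the log2 scale (SE 0.19, adjusted p = 0.0243). The call was lost when Braf 4 (adjusted p = 0.0607), Braf 5 (0.076) or control 5 (0.0561) was left out, within a range of 3.2e-04 to 0.0803 over 20 alternatives.

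Knockout of Fosl1 in Braf adenomas moved none of the 9 genes past the threshold. The count was 0 of 9 in either direction by limma, near the 0.419% of 14806 genes that passed, 0.0473% higher and 0.371% lower. Median log2 differences were 0.06 for the 9 genes and -0.15 for all genes. By TMM rescaling 9 genes of the table were higher and 25 lower, against 7 and 55 as deposited. None of the 21 alternatives called a member.

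Areg had a lowest, median and highest level of 75.1, 80.7 and 109.7 nCPM in the 6 knockout adenomas, inside the range of 63.8 to 127.1 nCPM in Braf adenomas. Its difference was -0.04 with a 95% interval of -0.43 to 0.34. Hbegf had 40.8, 53.9 and 62.6 nCPM in knockout adenomas, against 42.0 to 85.2 nCPM in Braf adenomas, a difference of -0.26 (-0.64 to 0.12). Tgfa had 34.3, 61.5 and 78.3 nCPM in knockout adenomas, against 45.4 to 74.5 nCPM in Braf adenomas, a difference of 0.02 (-0.42 to 0.46).

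Wider intervals were found for the other ligands. Btc had 27.4, 103.4 and 116.3 nCPM in knockout adenomas, against 59.6 to 89.2 nCPM in Braf adenomas, a difference of 0.06 (-0.54 to 0.67), and the lowest value was that of knockout 2. Nrg1 had 0.0565, 3.57 and 4.00 nCPM in knockout adenomas, against 0.985 to 3.08 nCPM in Braf adenomas, a difference of 0.32 (-0.36 to 1.00). In 5 of the 6 knockout adenomas Nrg1 was above every Braf adenoma, and in knockout 2 it was below all of them, at a fraction that stands for a zero. Ereg had 0.838, 8.31 and 14.6 nCPM in knockout adenomas, against 0.680 to 9.54 nCPM in Braf adenomas, a difference of 0.49 (-0.67 to 1.66). These intervals include changes of over 1 on the log2 scale for Ereg and do not show that the groups are alike.

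Among the receptors Egfr ranged from 48.4 to 163.5 nCPM in knockout adenomas with a median of 111.3, against 62.9 to 126.2 nCPM in Braf adenomas, a difference of 0.10 (-0.48 to 0.67). Erbb2 ranged from 154.6 to 183.7 nCPM in knockout adenomas with a median of 174.8, against 131.7 to 175.8 nCPM in Braf adenomas, a difference of 0.20 (-0.10 to 0.49). Erbb3 ranged from 231.7 to 419.6 nCPM in knockout adenomas with a median of 295.8, against 235.3 to 413.4 nCPM in Braf adenomas, a difference of 0.01 (-0.38 to 0.40). All 3 receptors overlapped between the groups. Knockout 2 was the lowest of its group for Areg, Ereg, Tgfa, Btc, Nrg1 and Egfr. Its fibroblast sum of 57.0 nCPM was the lowest of the 11 adenomas, which ranged up to 508.9 nCPM, and its mitochondrial share was the highest. Its epithelial (10220 nCPM), macrophage (18.0 nCPM) and endothelial sums (8.13 nCPM) were also the lowest of the 11, while sums for other cell types were not. That epithelial sum lay within the controls, at 7914 to 10560 nCPM. The part of these measures in the gene levels was not tested.

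**Figure D2:**
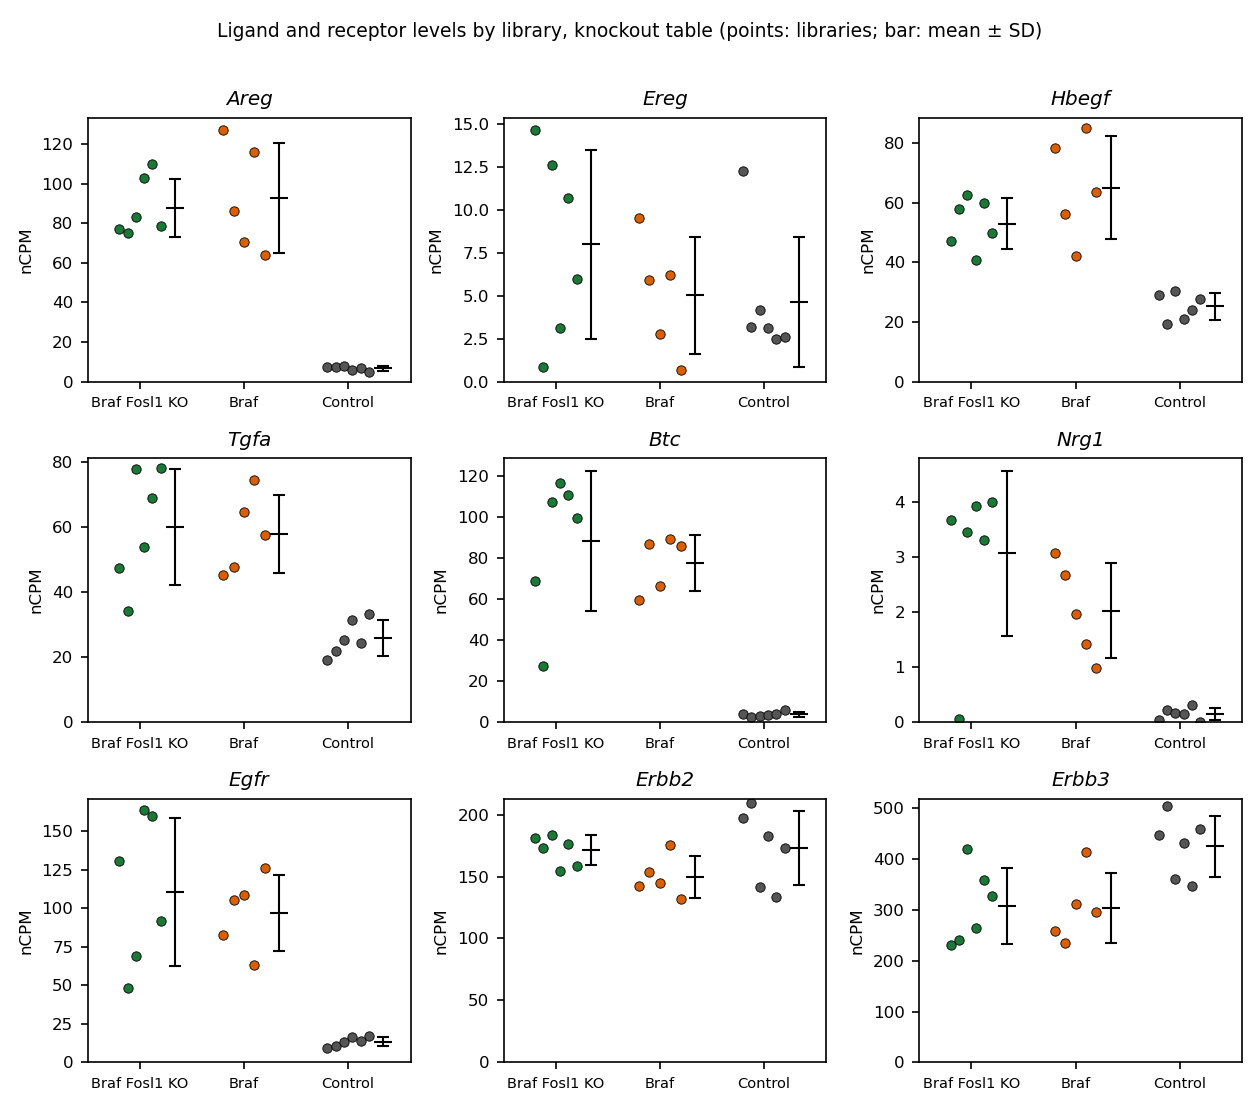
Levels of the 9 genes in the knockout table, in nCPM on axes from 0. Each point is 1 library of the Braf Fosl1 knockout, Braf or control group, and the bars give the mean ± SD of 6, 5 and 6 libraries. Areg, Btc, Tgfa, Hbegf and Egfr were above all controls in every adenoma, and knockout and Braf adenomas overlapped for each of the 9 genes.

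Against controls, knockout adenomas showed 6 of the 9 genes higher and 1 lower, where 56.8% of all genes tested passed, 37.4% higher and 19.4% lower (5535 and 2874 as deposited, 4187 and 4404 after TMM rescaling). The controls are those of the Braf comparison, so the differences share them. Areg differed by 3.54, Btc by 4.13, Hbegf by 1.05, Tgfa by 1.15, Nrg1 by 1.68 and Egfr by 2.84 on the log2 scale, with adjusted p between 2.3e-12 for Areg and 1.3e-04 for Nrg1. Nrg1 in knockout 2 lay within the range of the controls. The other 5 genes did not overlap, and the share of all genes without overlap was not computed. Erbb3 fell by 0.49 (adjusted p = 0.0231), a call lost without knockout 1 (0.0617), without control 5 (0.0556) and in 3 other alternatives, with adjusted p up to 0.156. Ereg differed by 0.53 (adjusted p = 0.407) and Erbb2 by 0.00 (95% interval -0.28 to 0.28, adjusted p = 0.996). Without the 3 libraries of highest mitochondrial share Ereg differed by 1.22 (adjusted p = 0.0432, range 0.0432 to 0.725 over 22 alternatives).

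In Fosl1 transgene adenomas the ligand genes Ereg and Nrg1 rose by over 2 on the log2 scale relative to Braf adenomas, and the ligand gene Btc and the 3 receptor genes fell. The other 3 ligand genes did not pass the test. That is 2 of 9 higher and 4 lower, where 19.2% of 15173 genes passed, 14.5% higher and 4.72% lower (2202 and 716 as deposited, 1705 and 1237 after TMM rescaling). Ereg and Nrg1 were tested only through the transgene adenomas. In the other groups only Braf 1 and Braf 3 reached 1 CPM, short of the 3 libraries required. Their calls are thus no independent support for the count. The medians were -0.69 for the 9 genes and 0.17 for all genes. The counts of members were sensitive to the processing, with 0 to 2 higher and 1 to 4 lower over 17 alternatives.

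Ereg stood at 35.1, 18.9 and 33.3 CPM in transgene adenomas, against 4.08, 0.0805 and 11.9 CPM in Braf adenomas. Every transgene adenoma was above every Braf adenoma, and the difference was 2.81 (SE 0.75, adjusted p = 0.032). That call was lost with edgeR on recovered reads (2.29, adjusted p = 0.138) and in 9 of 17 alternatives, with adjusted p from 0.00547 to 0.161, among them leaving out transgene 1 (0.0826), transgene 2 (0.0559), transgene 3 (0.0984) or Braf 1 (0.0662). Nrg1 stood at 15.8, 11.6 and 18.5 CPM in transgene adenomas, against 3.65, 0.161 and 3.39 CPM in Braf adenomas. These did not overlap either, with a difference of 2.48 (SE 0.47, adjusted p = 0.00593), which was lost with edgeR (2.52, adjusted p = 0.0674) and without the 3 libraries of highest mitochondrial share (2.45, adjusted p = 0.0815) among 17 alternatives.

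Markers of several cell types also differed in this comparison. The 6 fibroblast markers, among them Col1a1, Pdgfra and Dcn, summed to 1100, 614.8 and 1204 CPM in transgene adenomas, against 170.0, 18.5 and 122.6 CPM in Braf adenomas and 6.59 to 18.3 CPM in controls. All 6 were higher in transgene than in Braf adenomas, as were 5 of 5 endothelial and 3 of 4 smooth muscle markers tested. Macrophage markers summed to 241.0 to 582.2 CPM in transgene adenomas and 35.0 to 236.4 CPM in Braf adenomas, and 0 of 7 passed the test. Other cell types differed in direction. Of 4 neutrophil markers 2 were higher and 0 lower, of 3 mast cell markers 1 was higher and 1 lower. Of 2 glia markers 0 were higher and 1 lower. Within the transgene group the library lowest in fibroblast markers, transgene 2, was also lowest in Ereg and Nrg1, and within the Braf group Braf 2 was lowest in all of these. Endothelial sums were lowest in the same libraries, transgene 2 and Braf 2. Smooth muscle sums were lowest in transgene 2 but, among Braf adenomas, in Braf 1, at 40.3 CPM beside 69.1 CPM in Braf 2. Fibroblast, endothelial and smooth muscle content was not tested as a source of the Ereg and Nrg1 levels.

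**Figure D3:**
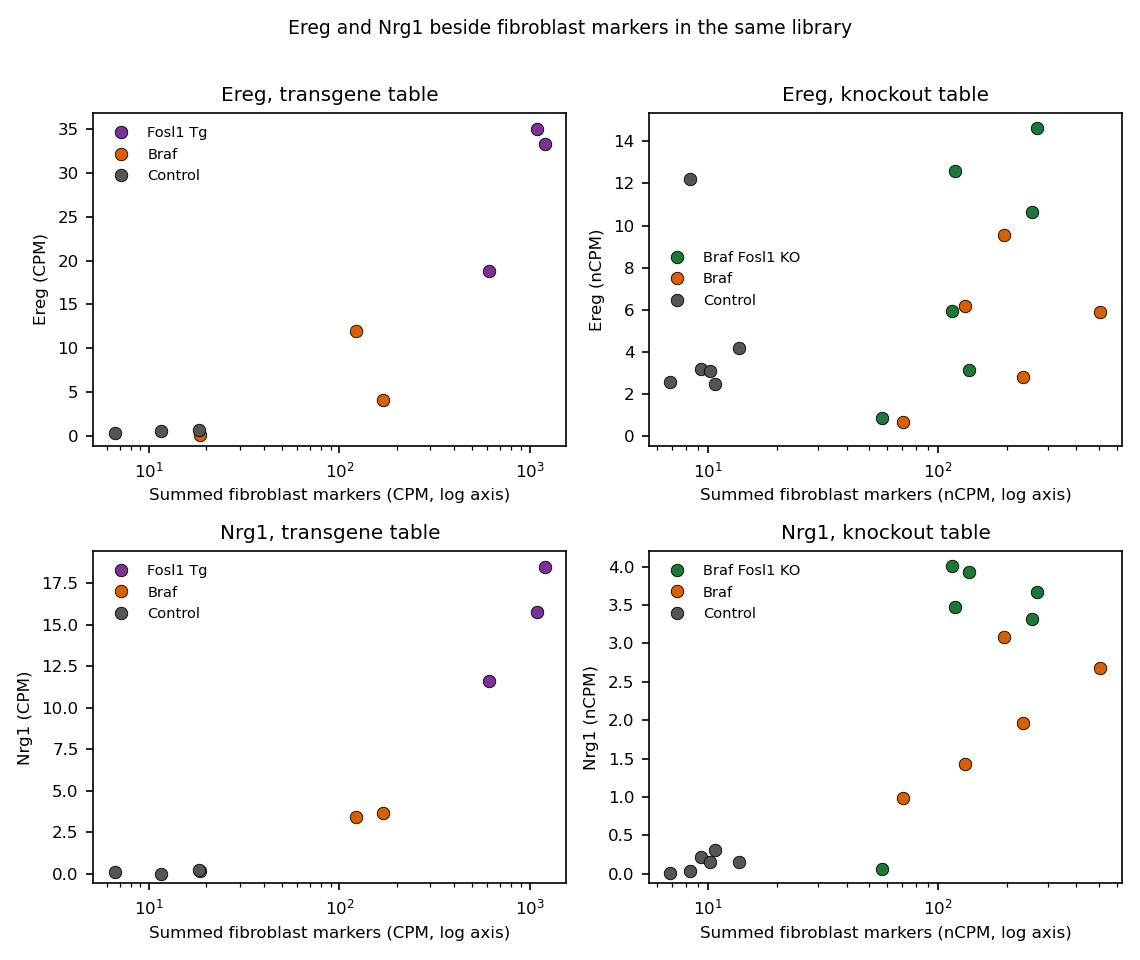
Ereg (top) and Nrg1 (bottom) against the summed level of 6 fibroblast markers in the same library, on a log axis, for the transgene table (left, CPM) and the knockout table (right, nCPM). Each point is 1 library; the 3 transgene adenomas lie highest on both axes, with Ereg from 18.9 to 35.1 CPM and marker sums from 614.8 to 1204 CPM, and control 4 of the knockout table combines 12.2 nCPM of Ereg with a marker sum of 8.38 nCPM.

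Btc stood at 24.8, 38.8 and 23.1 CPM in transgene adenomas, against 48.3, 58.8 and 83.3 CPM in Braf adenomas. No transgene adenoma reached a Braf adenoma, and Btc fell by 1.11 on the log2 scale (SE 0.27, adjusted p = 0.0169), a call lost without transgene 1 (0.0566) or transgene 3 (0.0694), within 3.0e-04 to 0.106 over 17 alternatives. Egfr stood at 43.1, 42.4 and 36.9 CPM in transgene adenomas, against 86.3, 94.1 and 90.8 CPM in Braf adenomas. Egfr fell by 1.13 (SE 0.15, adjusted p = 0.00126) without overlap, and the call held in all 17 alternatives.

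Erbb2 stood at 105.8, 122.3 and 102.0 CPM in transgene adenomas, against 172.2, 248.6 and 130.4 CPM in Braf adenomas. Erbb3 stood at 149.8, 129.5 and 114.0 CPM in transgene adenomas, against 229.9, 356.7 and 156.1 CPM in Braf adenomas. Neither overlapped, and they fell by 0.69 (SE 0.22, adjusted p = 0.0477) and 0.84 (SE 0.26, adjusted p = 0.0464), calls that leaving out any of the libraries transgene 1, 2 or 3 or Braf 1 or 2 ended, with adjusted p up to 0.193 and 0.15 over 17 alternatives. Epithelial markers fell as well in this comparison for 4 of 7 genes, with the sums given above. Of 5 enterocyte markers 3 were higher and 0 lower, with sums of 2401 ± 969.7 CPM in transgene and 1817 ± 1050 CPM in Braf adenomas. The part of either set in the lower Btc and receptor levels was not tested.

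Areg, Hbegf and Tgfa overlapped between transgene and Braf adenomas. Areg stood at 26.9, 52.3 and 26.8 CPM in transgene adenomas, with a difference from Braf of -0.99 (95% interval -2.31 to 0.32, adjusted p = 0.263). Tgfa stood at 35.5, 57.4 and 39.5 CPM in transgene adenomas, with a difference of -0.46 (-0.95 to 0.03, adjusted p = 0.173). Hbegf stood at 41.2, 51.8 and 14.4 CPM in transgene adenomas, with a difference of -0.50 (-1.41 to 0.41, adjusted p = 0.418), and transgene 3 was below every control.

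Against controls, transgene adenomas showed 6 of the 9 genes higher and 2 lower, where 64.2% of all genes tested passed, 46.7% higher and 17.5% lower (7085 and 2658 as deposited, 4799 and 4320 after TMM rescaling). Transgene adenomas are set against the same controls and Braf adenomas as above. Ereg differed by 4.26 (SE 0.75, adjusted p = 0.00113) and Nrg1 by 3.87 (SE 0.47, adjusted p = 7.1e-05), and both entered this table's test through adenomas alone. Btc differed by 3.08 (adjusted p = 7.9e-06), Areg by 2.33 (adjusted p = 0.00728), Egfr by 1.12 (adjusted p = 1.1e-04) and Tgfa by 0.76 (adjusted p = 0.0117). Without the 3 libraries of highest mitochondrial share Areg differed by 1.99 (adjusted p = 0.0874, range 0.00274 to 0.0874 over 17 alternatives) and Ereg by 4.01 (adjusted p = 0.0578, range 2.8e-07 to 0.0578), and neither passed. The Tgfa call was lost after TMM rescaling (0.32, adjusted p = 0.265) and in 6 of 17 alternatives, with adjusted p from 0.0063 to 0.281, among them leaving out transgene 2 (0.0528). Erbb2 fell by 0.67 (adjusted p = 0.0184, up to 0.327 over 17 alternatives) and Erbb3 by 0.86 (adjusted p = 0.0142, up to 0.105); without transgene 3 neither passed (0.0591 and 0.054), and without transgene 1 or control 3 Erbb2 did not (0.0505 and 0.0662). Hbegf did not pass (0.62, adjusted p = 0.205), but did without transgene 3 (1.16, adjusted p = 0.00234, range 0.00234 to 0.744).

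**Figure D4:**
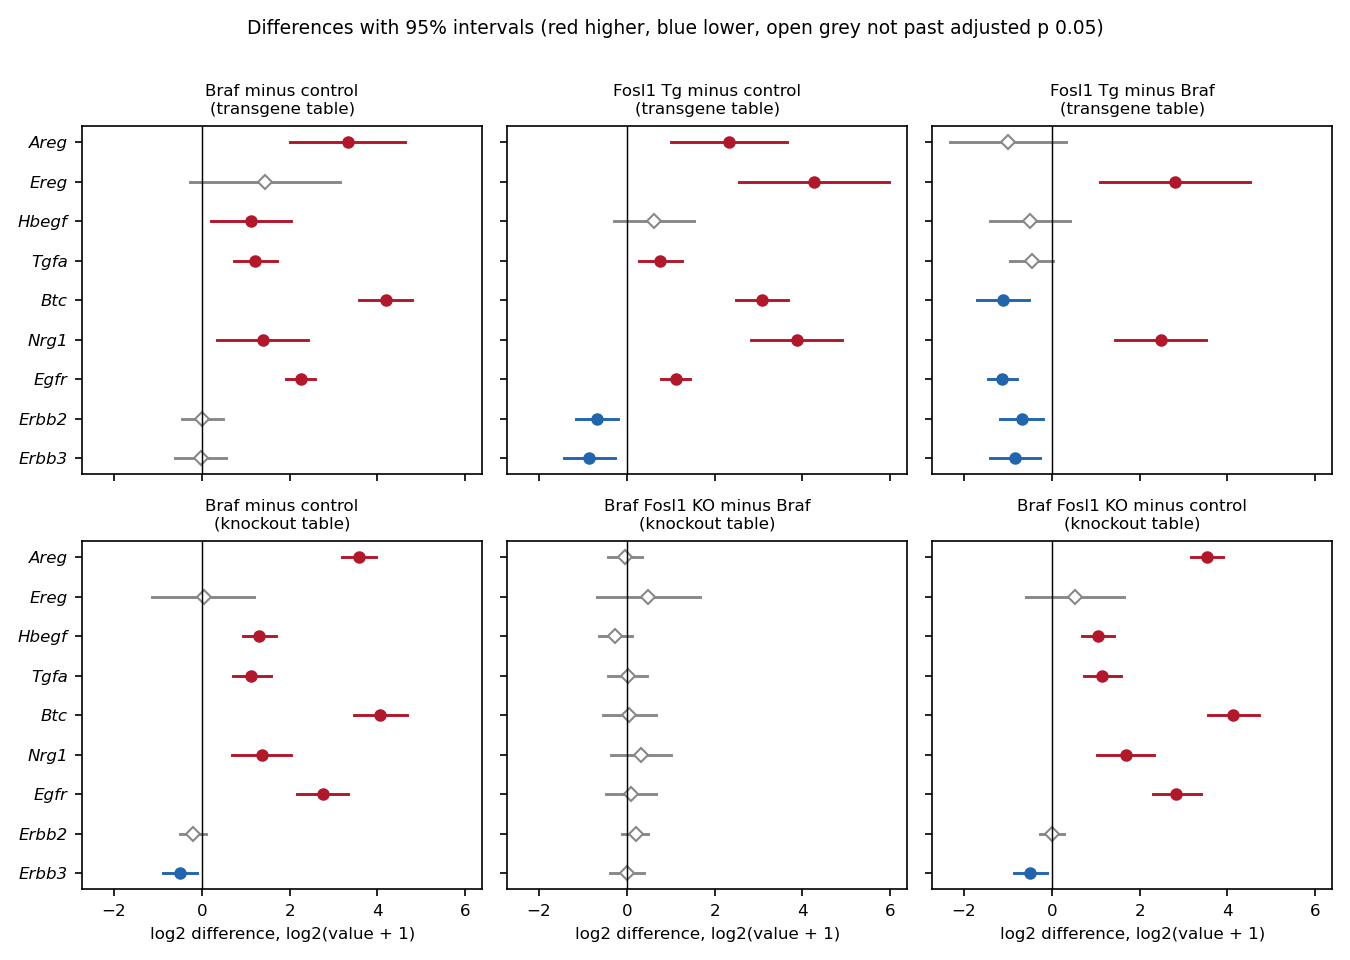
Differences of the 9 genes in the 6 comparisons, as log2 of value plus 1, with 95% intervals. Red marks higher and blue lower at an adjusted p under 0.05, and open grey symbols did not pass. Egfr was 2.25 above controls in Braf adenomas and 1.12 above them in transgene adenomas of the transgene table, and all 9 intervals of knockout against Braf adenomas include 0.

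Ereg and Areg, neighbours on chromosome 5, were compared as a ratio within each library, log2(Ereg + 1) minus log2(Areg + 1). In the knockout table the ratio was -3.62 ± 1.18 in knockout adenomas, -4.16 ± 0.67 in Braf adenomas and -0.62 ± 0.67 in controls (SD, n = 6, 5 and 6). Ereg was thus low beside Areg in both kinds of adenoma, and every adenoma was below every control. The difference from controls was -3.01 for knockout adenomas (exact permutation p = 0.00216, the smallest possible, adjusted over 6 comparisons 0.013) and -3.54 for Braf adenomas (exact permutation p = 0.00433, adjusted 0.013). Knockout and Braf adenomas differed by 0.54 (exact permutation p = 0.403). In this table Ereg itself differed from controls by 0.53 in knockout and 0.04 in Braf adenomas and passed in neither. Areg differed by 3.54 and 3.58, so the low ratios against controls carry the rise of Areg and are no separate result.

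In the transgene table the ratio was 0.37, -1.42 and 0.30 in transgene adenomas, -3.60, -5.11 and -3.45 in Braf adenomas and -2.64, -2.58 and -1.31 in controls. Transgene adenomas lay above Braf adenomas in every library, by 3.81, and Braf adenomas lay below controls in every library, by 1.88. With 3 libraries a group the smallest 2-sided exact permutation p is 0.1, which both differences had (adjusted p = 0.15). Transgene adenomas and controls overlapped, with a difference of 1.93 (exact permutation p = 0.2, adjusted 0.24). Between transgene and Braf adenomas Ereg itself differed by 2.81 and Areg by -0.99. The ratios of this table carry such differences of the 2 genes and are no separate result either.

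Levels were compared between genes per kilobase of exon, with all annotated exons of a gene merged. That length was 1.22 kb for Areg, 6.02 kb for Erbb3, 10.4 kb for Nrg1 and 11.3 kb for Egfr. The order between genes depends on these lengths, and the transcripts in use were not determined. In controls Erbb3 and Erbb2 led, with 39.7 ± 5.13 and 33.9 ± 4.65 CPM per kb in the transgene table, followed by Areg with 5.47 ± 3.01 CPM per kb. In all 4 adenoma groups Areg had the highest mean per length, for example 72.2 ± 12.2 nCPM per kb in knockout adenomas and 76.3 ± 22.9 in Braf adenomas of the knockout table, ahead of Erbb3 with 51.1 ± 12.4 and 50.4 ± 11.4. Areg and Erbb3 ranges overlapped in every adenoma group, and their order within single libraries was not compared. Btc came next after Erbb2 in 3 of the 4 adenoma groups, with 19.5 ± 7.57 nCPM per kb in knockout adenomas and 17.2 ± 3.00 in Braf adenomas of the knockout table, against 0.825 ± 0.252 in controls. Nrg1 was last in each group, with 1.48 ± 0.335 CPM per kb in transgene adenomas, 0.232 ± 0.188 in Braf adenomas and 0.00996 ± 0.0115 in controls of the transgene table. The middle of the order, Hbegf, Tgfa and Egfr, overlapped between neighbours in adenomas of the knockout table.

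**Figure D5:**
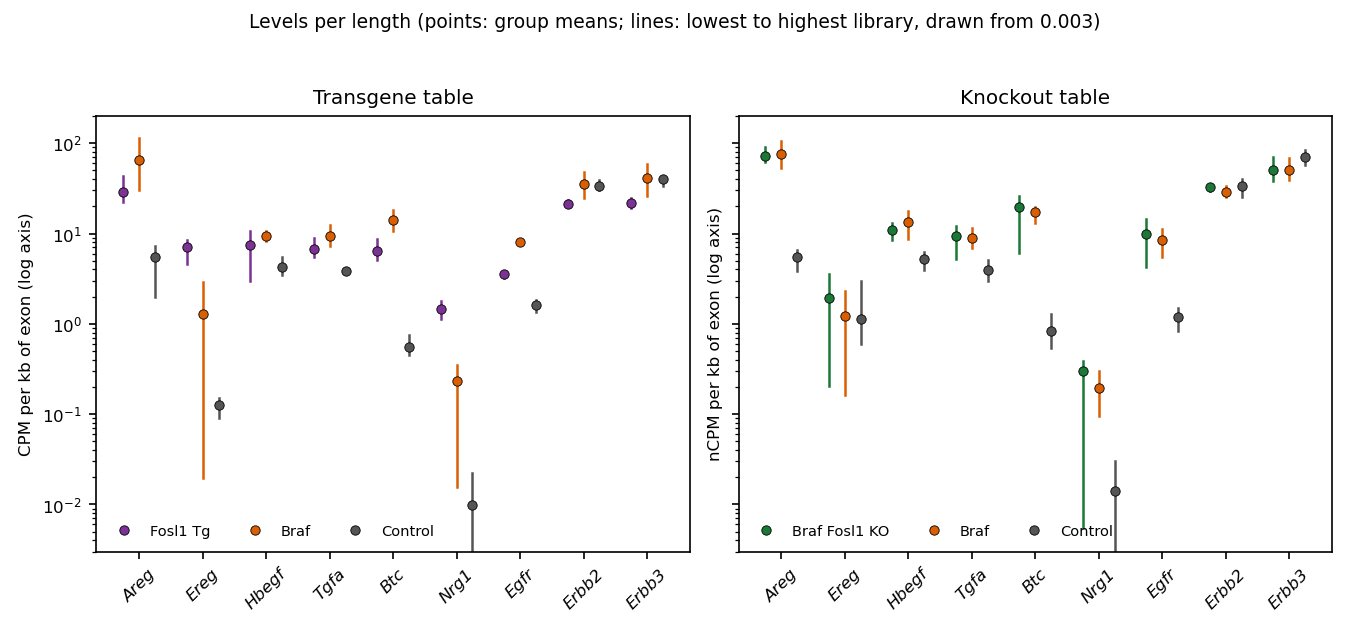
Levels of the 9 genes per kilobase of exon, on a log axis, in the transgene table (left, CPM per kb) and the knockout table (right, nCPM per kb). Points are group means and lines run from the lowest to the highest library. Areg lay at 5.47 CPM per kb in controls of the transgene table, far under Erbb3 at 39.7, and had the highest mean of the 9 genes in each adenoma group.

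Genes whose pattern over libraries was nearest were taken among 14187 genes tested in both tables, by the root mean square difference of centred log2 values, using the larger of the values of the 9 and 17 libraries. Nearest to Egfr were Itga2 (0.283), Myc (0.347) and Sgsm3 (0.376), beside a spread of Egfr itself of 0.927 and 1.41 (SD of log2 values). Near to Btc were Serpinb5 (0.457) and Rdh10 (0.467), with Btc spreads of 1.80 and 2.02. For Areg the nearest were Pmm1 (0.555), Cnn2 (0.561) and Gch1 (0.589), for Tgfa Fbxo6 (0.245), Chp1 (0.247) and Mospd2 (0.261), and for Hbegf Pon2 (0.388), Rab9 (0.396) and Fam241a (0.397). Nearest to Nrg1 were Smoc1 (0.388), Robo4 (0.479) and Dab2 (0.482).

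Other genes of the pathway, a list of 31, were called at shares near those of all genes in Braf adenomas. Of 26 tested in the transgene table, 10 were higher and 6 lower, beside 33.1% and 18% of all genes, and of 25 tested in the other, 10 were higher and 6 lower, beside 45.3% and 16.2%. The medians were 0.35 and 0.29, beside 0.27 and 0.42 for all genes. Among ligand-releasing genes, 3 of 6 were higher in the transgene table, beside 33.1% of all genes, and 4 of 5 in the knockout table, beside 45.3%. Adam9, a membrane protease, averaged 85.0 ± 4.47 CPM in Braf adenomas and 24.3 ± 3.46 CPM in controls (SD, n = 3 each), a difference of 1.77 (adjusted p = 3.5e-06), and 1.81 in the knockout table (adjusted p = 1.4e-06). Rhbdf1, an inactive rhomboid that carries the sheddase Adam17 to the surface, was higher by 1.36 (adjusted p = 2.7e-04) and 1.53 (adjusted p = 1.6e-06). Adam10, another sheddase of these ligands, was higher by 1.05 (adjusted p = 5.1e-04) and 1.36 (adjusted p = 4.0e-06).

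Of 11 inhibitor and turnover genes, 4 were higher and 3 lower in the transgene table and 4 higher and 2 lower in the knockout table, near the same shares of all genes. Lrig3, of a family of membrane proteins that modulate ErbB receptors, averaged 2.25 ± 0.732 CPM in Braf adenomas and 60.3 ± 5.20 CPM in controls, a difference of -4.26 (adjusted p = 4.7e-07), and fell by 2.95 in the knockout table (adjusted p = 7.2e-07). Socs5, a suppressor of cytokine signalling that promotes loss of the EGF receptor, averaged 31.7 ± 6.00 CPM in Braf adenomas and 3.36 ± 0.825 CPM in controls, a difference of 2.91 (adjusted p = 2.1e-06), and rose by 3.10 in the knockout table (adjusted p = 4.4e-10). Nrg4, a ligand of ErbB4, was lower by -2.51 (adjusted p = 6.1e-05) and -2.47 (adjusted p = 4.1e-08). Grb7, an adaptor that binds ErbB receptors, rose by 1.06 (adjusted p = 2.9e-04) in the transgene table and differed by 0.32 (adjusted p = 0.0884) in the knockout table. The named differences that passed did so in every alternative recomputed, which left out Adam10 in the transgene table.

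In transgene against Braf adenomas 4 of 26 list genes were higher and 1 lower, near the 14.5% and 4.72% of all genes. Adam12, a metalloprotease that can cut Hbegf loose, averaged 7.48 ± 1.41 CPM in transgene adenomas and 0.239 ± 0.216 CPM in Braf adenomas, with no read in controls, a difference from Braf of 2.78 (adjusted p = 2.1e-04). Adam12 entered the test through the transgene adenomas alone, so it had to differ and its call adds no support to the count. Cblb, a ubiquitin ligase that turns receptors over, averaged 65.9 ± 14.9 CPM in transgene adenomas and 14.9 ± 3.75 CPM in Braf adenomas (2.07, adjusted p = 5.9e-04). Lrig3 rose by 1.03 (adjusted p = 0.0149), and Cblc, an epithelial ubiquitin ligase, fell by 0.70 (adjusted p = 0.0151). Lrig3 lost its call without transgene 3 (0.0594) and in 2 other alternatives, and Cblc without transgene 3 (0.0524) and in 1 other, out of 17 each. The marker sums given for Ereg and Nrg1 stand beside these values too, and their part was not tested.

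In knockout against Braf adenomas 0 of 25 list genes passed, with a median of -0.25 beside -0.15 for all genes. The smallest adjusted p was that of Lrig1, an inhibitor of ErbB receptors, with a difference of -0.94 (adjusted p = 0.122, 0.0584 to 0.286 over 21 alternatives), followed by Adam9 with -0.53 (adjusted p = 0.291), Rhbdf1 with -0.44 (adjusted p = 0.308) and Cblc with -0.26 (adjusted p = 0.368). Against controls, knockout adenomas showed 7 list genes higher and 6 lower of 25, beside 37.4% and 19.4% of all genes, and transgene adenomas 10 higher and 4 lower of 26, beside 46.7% and 17.5%.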

How the data were processed

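RNA of mouse intestinal epithelium and tumours was sequenced on an Illumina NovaSeq, per the labels' protocols, from TruSeq RNA v2 or stranded ribosome-depleted libraries, without saying which. Reads were trimmed with fastp and aligned with STAR to GRCm38, and limma was used, per the submitters' processing notes; how reads were counted, and whether by strand, is not given in the sources used here. The deposited values of the transgene table are CPM, per the file headers. Within 0.02, 100% of the 151187 nonzero values were whole reads, so reads were recovered. Another 12 columns of per-sample values there were not used. The deposited values of the knockout table are a normalised count signal, per the file headers. Column totals ran from 6284385 to 6319523. They were multiplied by 0.1585 and called nCPM, and 1 duplicate row was dropped.

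Libraries were grouped by title, genotype and treatment. Adenoma titles number mice, and control titles number tissues, so p-values there measure the spread between samples that may share a mouse. Each table was fitted apart with limma 3.58.1 (trend and robust) in R 4.3.3 on log2(value + 1), with 1 mean for each of 3 groups. Genes had at least 1 CPM or nCPM in 3 (transgene) or 5 libraries (knockout). Tests were 2-sided, with Benjamini-Hochberg adjustment over 15173 and 14806 genes and a threshold of 0.05. All 9 members passed the filter in both tables. Fold changes on this scale understate the change of low genes. Ratios of Ereg to Areg were tested with exact permutation tests in SciPy 1.17.1. Alternatives covered the pseudocount, the filter, scaling, the groups in the fit, libraries left out, a replicate block and, on recovered reads, edgeR 4.0.16 and DESeq2 1.42.0. The limma script was first tested on simulated data.

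Named were all members, up to 6 pathway genes of smallest adjusted p in Braf against control and up to 4 in the knockout and transgene against Braf comparisons, the 3 nearest genes of each member called in the same direction in Braf against control of both tables (1 of these genes is not reported here), the genes between Epgn and Btc, and Fosl1. Members and lists were chosen with earlier results of these data known. Adam10 is named for both tables though the rule took it in the knockout table alone.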

Additional observations from a re-analysis of the deposited data

Results flagged for a closer look

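Of 27 groups of 4 to 10 libraries examined, 2 held a library far from the others, and chance alone marks about 1 in 20 groups. Nrg1 in knockout 2 was 0.0565 nCPM, while the other 5 knockout adenomas held 3.32 to 4.00 nCPM. That low value is among the fractions that stand for zeros in this library. The same library had a fibroblast marker sum of 57.0 nCPM, an epithelial marker sum of 10220 nCPM and a mitochondrial share of 28.5%. Ereg in control 4 was 12.2 nCPM, while the other 5 controls held 2.46 to 4.17 nCPM. That library had a fibroblast marker sum of 8.38 nCPM and a mitochondrial share of 23.4%. The part of these measures in either value was not tested.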

How the results depend on the processing

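Of 555 values recomputed for the 9 genes under choices other than leaving out 1 library, 500 kept their direction and their side of the threshold, 36 lost the call, 4 gained one and 15 changed sign, none of these last being called. With 1 library left out, 391 of 468 kept both. Ratios of Ereg to Areg kept both in 24 of 24 values under the other choices and in 52 of 52 with 1 library left out. Those of the transgene table could not pass, since their smallest possible exact permutation p was 0.1, so only their direction could change. Areg, Btc, Tgfa and Egfr kept their calls against control in Braf adenomas of both tables under every alternative. Counts of members, for transgene against Braf adenomas, were 1 higher at a pseudocount of 0.25, 1 higher and 2 lower with only the 2 groups fitted, 0 higher by edgeR, 1 higher by DESeq2, and 0 higher and 1 lower without the 3 libraries of highest mitochondrial share, which leaves 1 control that is assumed to vary like the other groups. That last choice gave 3 higher and 0 lower for transgene adenomas against control and, in the knockout table, 0 lower for Braf and for knockout adenomas against control. Without knockout 1 and 2 together, knockout adenomas against control also had 0 lower. Both rescalings gave 2 lower for Braf adenomas against control in the knockout table.

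With 1 library left out, members higher and lower ranged from 4 to 6 and 0 to 0 for Braf against control (transgene table), 5 to 7 and 0 to 2 for transgene against control, 1 to 2 and 1 to 4 for transgene against Braf, 6 to 6 and 0 to 1 for Braf against control (knockout table), 0 to 0 and 0 to 0 for knockout against Braf, and 6 to 6 and 0 to 1 for knockout against control. Differences that changed sign with 1 library left out ranged, for Braf against control, from -0.23 to 0.24 for Erbb2 and -0.32 to 0.27 for Erbb3 in the transgene table and from -0.23 to 0.43 for Ereg in the knockout table. The range was -0.85 to 0.04 for Hbegf in transgene against Braf adenomas and -0.07 to 0.06 for Erbb2 in knockout against control. For knockout against Braf it was -0.16 to 0.08 for Areg, -0.07 to 0.17 for Tgfa, -0.04 to 0.37 for Btc, -0.05 to 0.31 for Egfr and -0.09 to 0.13 for Erbb3.

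Other sign changes concerned differences that did not pass. Erbb2 in Braf against control (transgene table) was -0.25 with either rescaling and -0.21 by edgeR and by DESeq2. Ereg in Braf against control (knockout table) was -0.02 at a pseudocount of 0.25, -0.32 with TMM and -0.36 with median-ratio factors. Areg in knockout against Braf was 0.12 with TMM, 0.14 with median-ratio factors and 0.05 without knockout 1 and 2. Erbb2 in knockout against control was -0.31, -0.33 and -0.02 under the same choices. Beyond the scalings and libraries left out, the cause of these moves was not tested.

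The titles do not say that same-numbered mice are related, so the replicate numbers were not taken to pair libraries. Same-numbered libraries correlated between -0.184 and 0.371 in their deviations from group means. Without the range for differently numbered libraries, these values cannot decide whether they were paired. With the replicate block, Areg in knockout against Braf was 0.05, Erbb2 in knockout against control -0.15, and 0 members were lower in knockout against control. Over all genes the block left 1 higher and 0 lower in knockout against Braf, against 7 and 55. Calls over all genes in that comparison ranged from 1 to 15 higher and 0 to 131 lower over 21 alternatives. In transgene against Braf adenomas they ranged from 721 to 2436 higher and 189 to 1776 lower, and in transgene against control from 4706 to 7701 higher and 1607 to 4459 lower. In Braf against control the ranges were 3082 to 5207 higher and 1655 to 3949 lower (transgene table) and 4124 to 6987 higher and 1960 to 4581 lower (knockout table), and in knockout against control 4104 to 6056 higher and 2060 to 4521 lower. Nrg1 has no value under the stricter filter in the knockout table, whose unknown depth limits what its low levels show.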

Other observations

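Ereg lies outside the rule for nearest genes, since it did not pass in Braf against control, and its nearest genes were looked up after its values were seen. They were Il11 (root mean square difference 0.787), Pdgfrb (0.799) and Dio2 (0.823), all further away than the nearest genes named for the other ligands and for Egfr. Mast cell markers summed to 51.4 to 70.6 CPM in transgene adenomas, 104.3 to 698.8 CPM in Braf adenomas and 8.01 to 11.3 CPM in controls. T cell markers summed to 3.43 to 14.4 CPM in transgene adenomas, 1.45 to 11.7 CPM in Braf adenomas and 21.6 to 54.3 CPM in controls.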
